A study of Mus musculus with 6 samples.

Results

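Receptor and adaptor genes that let cells read the constant (Fc) region of antibodies are described here in mouse liver, 8 in all. They were taken by gene symbol from the deposited table, in which 8 of 29734 genes matched: the activating IgG receptors Fcgr1, Fcgr3 and Fcgr4, the inhibitory IgG receptor Fcgr2b, the neonatal Fc receptor Fcgrt, the adaptors Fcer1g and Tyrobp, and the kinase Syk. The study sequenced poly(A)-selected RNA from livers of male mice. The 3 Prdx1C52S libraries (numbers 1, 2 and 4) come from mice whose peroxiredoxin 1, a peroxide-reducing enzyme, carries a serine in place of a cysteine, and the 3 WT libraries (numbers 6, 8 and 9) come from wild-type mice. Mice of both genotypes were 8 weeks old when a Western diet began and stayed on it for 20 weeks, so no library of either genotype comes from a mouse on another diet. No source used here gives the strain, how the allele was made or whether each library is 1 animal, and p-values therefore measure the spread between these libraries only.

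Activating Fc gamma receptors have no signalling motif in their own tail in the mouse and depend on the FCER1G chain, whose immunoreceptor tyrosine-based activation motif (ITAM) is phosphorylated by Src-family kinases and then binds SYK. TYROBP is a second ITAM adaptor, used by myeloid receptors such as TREM2, while FCGR2B carries an inhibitory motif (ITIM) that recruits the lipid phosphatase INPP5D. In liver, macrophages hold the activating receptors, sinusoidal endothelial cells are the main site of FCGR2B and remove immune complexes with it, and FCGRT, paired with B2M, returns IgG and albumin to the blood from several cell types.

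The motifs that separate activating from inhibitory members are shown first, as codons of the GENCODE M21 coding sequence on GRCm38 read 5′ to 3′. Capitals mark the codons at the fixed positions of each motif (the tyrosines and the leucines or isoleucines of the ITAM, and the tyrosine and outer residues of the ITIM). The ITAM pattern was found in Fcer1g (codons 65 to 79 of 86) and Tyrobp (codons 92 to 106 of 114) and in no other member, and the ITIM of Fcgr2b lies at codons 317 to 322 of 340. The looser ITIM pattern also matched by letters in Fcgr1, Fcgr4, Fcer1g, Tyrobp and Fcgrt, and a letter match is no evidence of a working motif.
Fcer1g ITAM: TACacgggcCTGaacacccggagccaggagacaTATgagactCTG
Tyrobp ITAM: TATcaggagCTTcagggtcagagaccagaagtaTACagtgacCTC
Fcgr2b ITIM: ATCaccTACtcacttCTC

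Several members share a neighbourhood. Fcgr2b (chr1:170958617-170976547, minus strand), Fcgr4 (chr1:171018920-171029761, plus strand), Fcgr3 (chr1:171051174-171064935, minus strand) and Fcer1g (chr1:171229572-171234365, minus strand) lie within 275.7 kb on GRCm38, a span that holds 13 annotated genes. Fcgr1 is at chr3:96282909-96293969 (minus), Tyrobp at chr7:30413760-30417582 (plus), Fcgrt at chr7:45092990-45103851 (minus) and Syk at chr13:52583173-52648792 (plus). Fcgr3 and Fcgr2b are close paralogs, and their coding sequences were 83.74% identical over 787 aligned bases, with 297 of 300 bases identical in the best block. A 150-base stretch of that block, the length of 1 read, is printed because it differs at only 1 base, in capitals (coding bases 263 to 412 of Fcgr3 and 278 to 427 of Fcgr2b).
Fcgr3: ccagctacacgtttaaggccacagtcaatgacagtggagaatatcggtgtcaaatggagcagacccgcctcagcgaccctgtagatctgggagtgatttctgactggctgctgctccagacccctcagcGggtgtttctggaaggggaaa
Fcgr2b: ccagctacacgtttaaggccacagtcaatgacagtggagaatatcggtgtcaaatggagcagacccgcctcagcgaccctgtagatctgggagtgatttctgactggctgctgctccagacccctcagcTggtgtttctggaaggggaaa
Of the 75-base windows of the Fcgr3 transcript, 94 of 1273 (7.38%) also occur in Fcgr2b, and of the 150-base windows 0 of 1198 do. No source used here says how reads shared by the pair were assigned, so their split carries that uncertainty. Antisense gene models overlap Fcgr2b and Fcgrt but were listed at no more than 0.101 and 0.0911 FPKM.

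The libraries hold between 60326469 and 76164949 estimated counts, which at about 4 counts per fragment is 15.1 to 19 M fragments. The least covered member, Fcgr1, rests on 134 to 372 fragments per library and the most covered, Fcgrt, on 2302 to 2926. WT 8 stands apart from the other libraries, with a normalization (TMM) factor of 1.28 where the others span 0.883 to 1.04. All 6 bile duct markers were highest in WT 8, where Krt19, a duct keratin, stood at 30.9 FPKM against 0.507 to 3.97 FPKM elsewhere, and 6 of 8 resident Kupffer cell markers were lowest there. Of 20 sinusoidal endothelial markers, 11 were lowest and 7 were highest in WT 8. Prdx1 transcript itself stood at 261, 238 and 242 FPKM in Prdx1C52S and 236, 232 and 270 FPKM in WT, and a point substitution leaves transcript level uninformative about the label. Each member's edgeR result is given with and without WT 8.

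In the livers of Prdx1C52S mice, transcripts of the activating receptors, both adaptors and Syk were lower than in WT livers, while Fcgr2b overlapped between genotypes and Fcgrt was close to equal in FPKM. In each of the 6 macrophage-type genes, every Prdx1C52S library lay below every WT library in FPKM. That was also true of 36.7% of the genes tested (6.09% lay above without overlap), so non-overlap in FPKM by itself does not set the members apart. With all 6 libraries, edgeR's quasi-likelihood test called 0 of 8 members at an adjusted p of 0.05, as it called 0% of the 18931 genes tested. At an unadjusted p under 0.05, 5 members were lower and 0 were higher, where 14.8% of genes were lower and 11.5% higher. In bulk tissue, fewer cells of a type and less RNA per cell cannot be told apart.

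**Figure D1:**
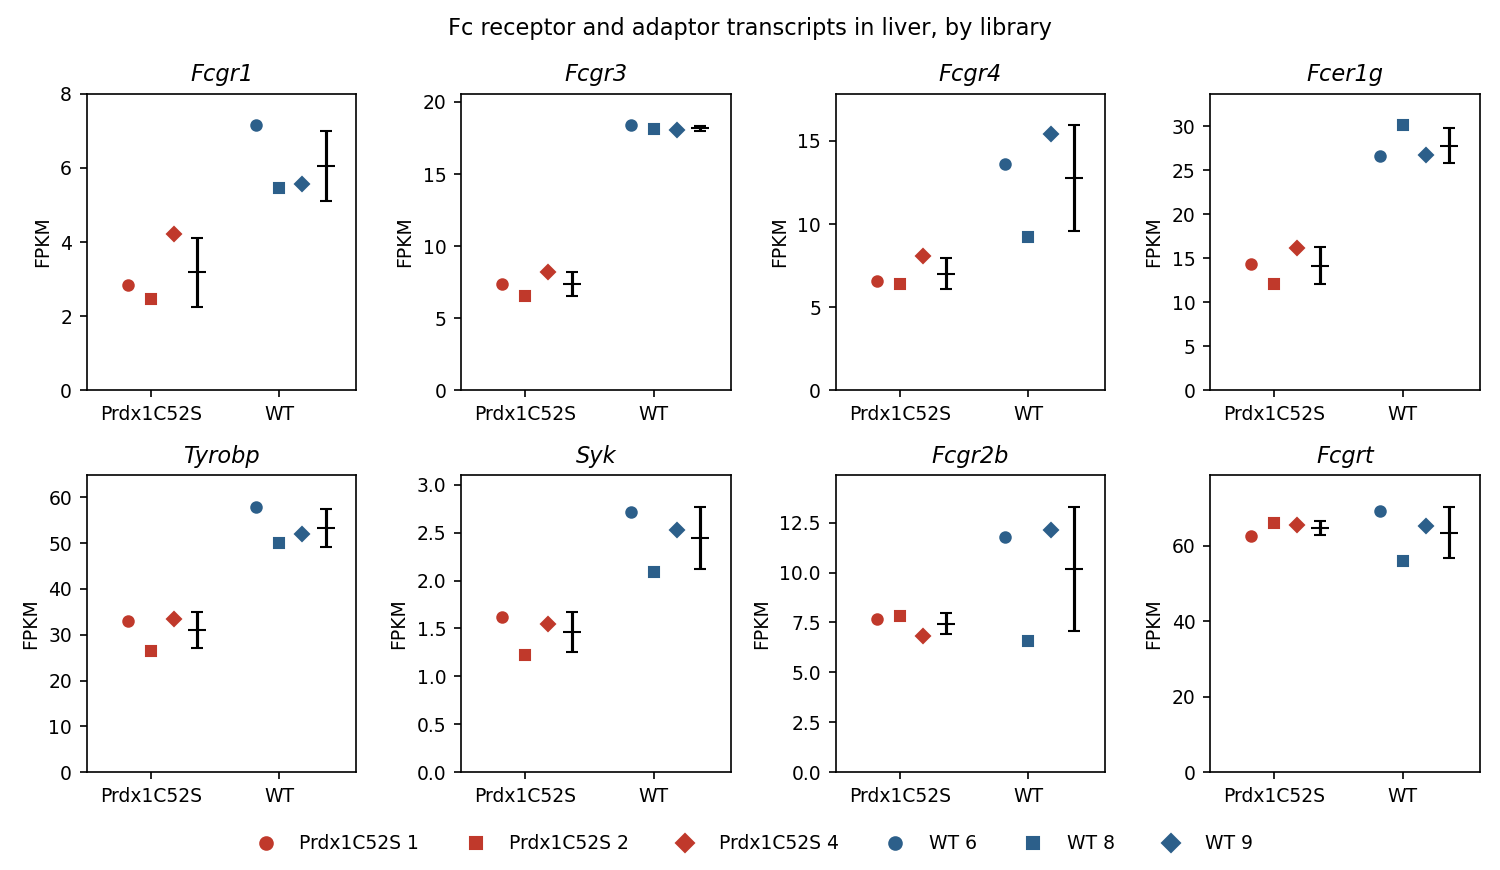
FPKM of the 8 members in each library, with the 3 Prdx1C52S libraries left and the 3 WT libraries right, and the mean ± SD in black. The Prdx1C52S points lie below all WT points for Fcgr1, Fcgr3, Fcgr4, Fcer1g, Tyrobp and Syk, and overlap them for Fcgr2b and Fcgrt.

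Among the activating receptors, Fcgr3 differed most. Fcgr3, a low-affinity receptor for immune complexes, had 7.39, 6.52 and 8.23 FPKM in Prdx1C52S 1, 2 and 4 and 18.38, 18.13 and 18.03 FPKM in WT 6, 8 and 9. The WT libraries were almost level with each other and all well above the Prdx1C52S libraries. The log2 fold change was -1.02 ± 0.13 (SE, edgeR), with an adjusted p of 0.0553, equal to the smallest adjusted p of the comparison, and it ranked 26 by p among all genes tested. Without WT 8 the log2 fold change was -1.11 and the edgeR adjusted p 0.00893.

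Fcgr4, which in the mouse binds IgG2a and IgG2b and is known from monocytes and macrophages, had 6.56, 6.38 and 8.10 FPKM in Prdx1C52S and 13.6, 9.23 and 15.4 FPKM in WT. The gap to WT rests on WT 6 and WT 9, with WT 8 close to the Prdx1C52S range. Its edgeR log2 fold change was -0.61 ± 0.27 (SE, adjusted p = 0.202), against -0.86 (adjusted p = 0.0267) without WT 8. Fcgr1, the high-affinity receptor that binds IgG as a monomer, had 2.85, 2.48 and 4.23 FPKM in Prdx1C52S and 7.15, 5.45 and 5.58 FPKM in WT. The libraries did not overlap, and edgeR put the difference at -0.65 ± 0.25 (log2, SE, adjusted p = 0.159), or -0.81 (adjusted p = 0.1004) without WT 8.

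The adaptors were lower in the same libraries. Fcer1g, the shared signalling chain of the activating receptors, had 14.3, 12.1 and 16.2 FPKM in Prdx1C52S and 26.6, 30.1 and 26.7 FPKM in WT. Its log2 fold change of -0.68 ± 0.13 (SE) had an edgeR adjusted p of 0.0719, and 0.0313 without WT 8 at -0.72. Tyrobp had 33.0, 26.6 and 33.5 FPKM in Prdx1C52S and 57.9, 49.9 and 52.01 FPKM in WT. No library overlapped, and edgeR put Tyrobp at -0.50 ± 0.16 (log2 fold change, SE, adjusted p = 0.115), or -0.63 (adjusted p = 0.0317) without WT 8. Syk, the kinase that docks on both ITAMs and is also expressed outside macrophages, had 1.62, 1.22 and 1.55 FPKM in Prdx1C52S and 2.72, 2.09 and 2.52 FPKM in WT. For Syk, edgeR gave a log2 fold change of -0.47 ± 0.20 (SE, adjusted p = 0.182), or -0.65 (adjusted p = 0.0381) without WT 8.

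The members outside the macrophage set behaved differently from library to library. Fcgr2b, the inhibitory receptor, had 7.67, 7.81 and 6.84 FPKM in Prdx1C52S and 11.8, 6.59 and 12.1 FPKM in WT. WT 8 was below all 3 Prdx1C52S libraries and the other WT libraries above them. By edgeR, Fcgr2b was at -0.20 ± 0.29 (log2 fold change, SE, adjusted p = 0.6996) with all libraries and -0.49 (adjusted p = 0.0324) without WT 8, so 1 library decides this call. Fcgrt, the FcRn heavy chain, had 62.7, 66.1 and 65.5 FPKM in Prdx1C52S and 69.3, 56.1 and 65.2 FPKM in WT, a log2 fold change of 0.30 ± 0.17 (SE, edgeR adjusted p = 0.301), or 0.14 without WT 8 (adjusted p = 0.391). It is the only member whose log2 fold change was above 0, and under library totals it was 0.02.

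**Figure D2:**
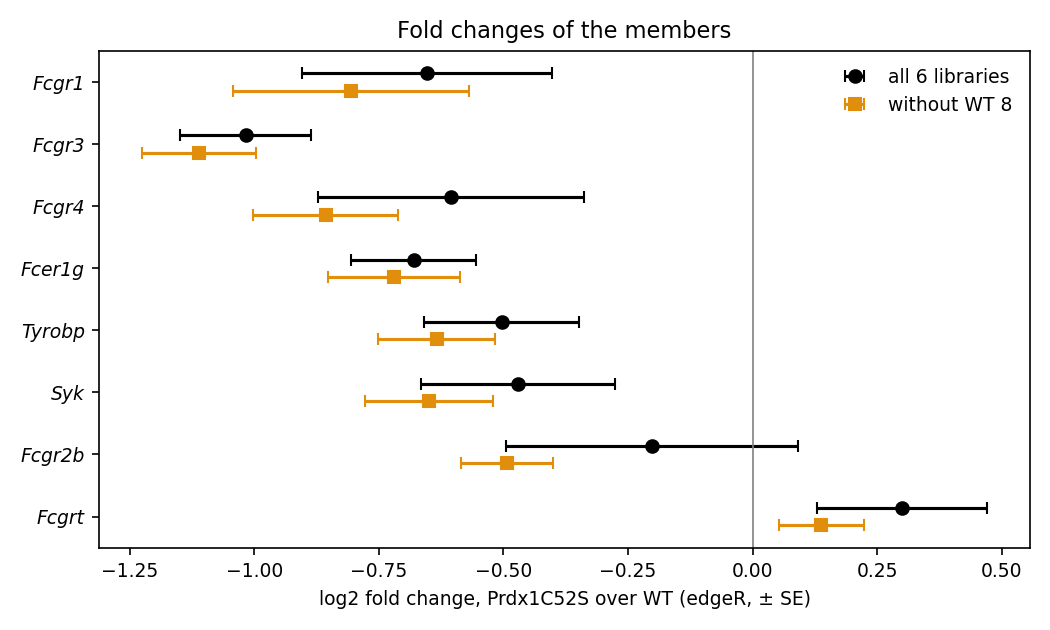
Log2 fold change of each member, Prdx1C52S over WT, from edgeR with its SE, with all 6 libraries (circles) and without WT 8 (squares). The 6 macrophage-type genes lie between -1.02 and -0.47 with all libraries, and Fcgr2b moves to -0.49 without WT 8.

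Scaling matters to how clearly the groups part. On CPM scaled by TMM factors, Fcgr3, Fcer1g and Tyrobp stayed below WT without overlap (18% of tested genes did), Fcgr1, Fcgr4, Syk and Fcgr2b overlapped, and every Prdx1C52S library was above every WT library for Fcgrt (16.9% of tested genes). Fcgrt had 159, 173 and 170 TMM-scaled CPM in Prdx1C52S and 156, 102 and 148 in WT. Library totals alone move the median of all genes to a log2 fold change of -0.34, where TMM leaves it at -0.03, and the members then stand at -1.31 (Fcgr3) to 0.02 (Fcgrt). Without WT 8, edgeR called 6 of 8 members lower (Fcgr3, Fcgr4, Fcer1g, Tyrobp, Syk and Fcgr2b), where 1.94% of genes were called lower and 2.7% higher. Of the other tools, DESeq2 called 2 members lower (9.1% of genes), voom with library weights 6 (5.08%) and limma on log2(FPKM + 1) 3 (0.629%). The limma fit used FPKM with no further scaling between libraries, and its median over all genes was -0.17.

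In levels per length, the order of the members was Fcgrt, Tyrobp and Fcer1g, then Fcgr2b, Fcgr3 and Fcgr4, then Fcgr1 and Syk in Prdx1C52S livers, where Fcgr2b, Fcgr3 and Fcgr4 overlapped between libraries. In WT livers Fcgrt and Tyrobp overlapped, and Fcer1g and Fcgr3 followed. Next, above Syk, Fcgr4 overlapped with Fcgr2b and Fcgr2b with Fcgr1, while Fcgr4 lay above Fcgr1 without overlap. The make-up of the IgG receptor transcripts differed accordingly. Fcgr3 was 30.2, 28.1 and 30.0% of the summed FPKM of the 4 Fcgr genes in Prdx1C52S and 36.1, 46.0 and 35.2% in WT. Fcgr2b was 31.4, 33.7 and 25.0% in Prdx1C52S and 23.2, 16.7 and 23.7% in WT, without overlap. These shares were not tested, and non-overlap was common here, at 36.7% of tested genes lower and 6.09% higher in FPKM. The activating receptors together stood at 2.19, 1.97 and 3.00 times Fcgr2b in Prdx1C52S and 3.32, 4.98 and 3.22 times in WT. The summed FPKM of the 4 genes was 24.5, 23.2 and 27.4 in Prdx1C52S and 50.9, 39.4 and 51.2 in WT.

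**Figure D3:**
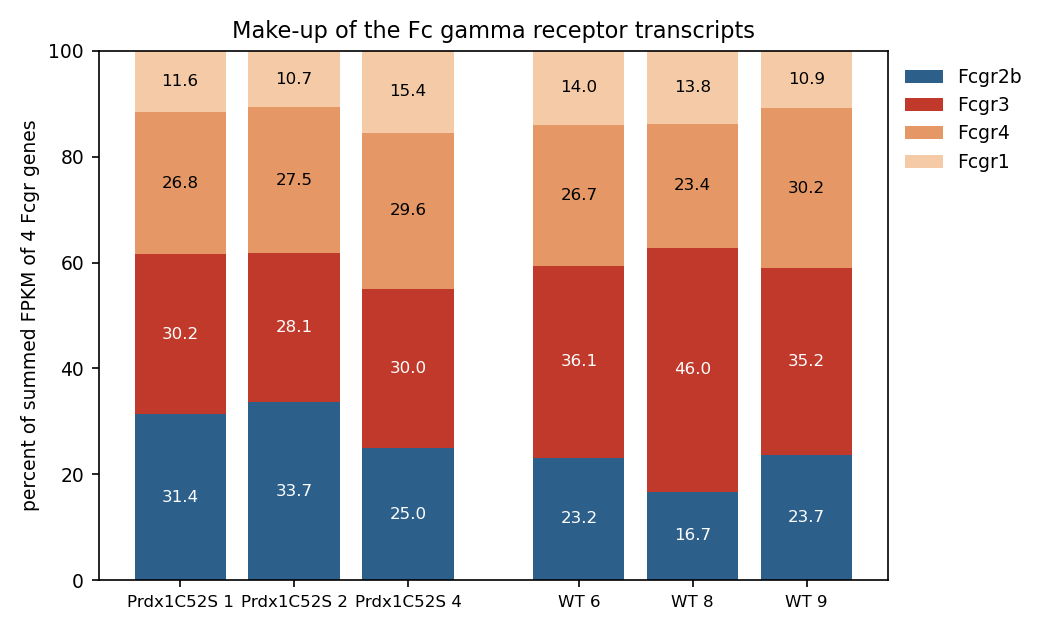
Percent of the summed FPKM of Fcgr1, Fcgr2b, Fcgr3 and Fcgr4 in each library, the 3 Prdx1C52S libraries left and the 3 WT libraries right. Fcgr3 takes 28.1 to 30.2% in Prdx1C52S and 35.2 to 46.0% in WT.

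Ratios within a library remove its scaling. Over Fcgrt, all 6 macrophage-type members were lower in every Prdx1C52S library than in every WT library, by a mean log2 difference between -1.34 (Fcgr3) and -0.78 (Syk). The two-sided exact permutation test gave p = 0.1 for each, the smallest that 3 against 3 libraries allow, and an adjusted p of 0.171 over the 12 ratios between members. Over Fcgr2b only Fcgr3 was separate: its ratio was 0.963, 0.835 and 1.20 in Prdx1C52S and 1.56, 2.75 and 1.49 in WT (mean log2 difference -0.91, exact permutation p = 0.1, adjusted 0.171), or -0.62 without WT 8. The other 5 macrophage-type members over Fcgr2b overlapped between genotypes, at -0.58 to -0.34 (exact permutation p between 0.2 and 0.4). Without WT 8 these differences were smaller, at -0.34 for Fcgr1, -0.37 for Fcgr4, -0.23 for Fcer1g, -0.14 for Tyrobp and -0.16 for Syk. The macrophage-type members thus parted by genotype when set against Fcgrt, and mostly did not when set against Fcgr2b. In FPKM, Fcgrt itself was close to equal, with a mean of 64.8 in Prdx1C52S and 63.6 in WT. Without any such ratio, 36.7% of tested genes lay below WT without overlap in FPKM. The share of all genes that part when set over Fcgrt was not computed, so this parting does not set the members apart.

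Macrophage markers were lower alongside the members. All 15 markers in the list were tested, and 14 had a negative log2 fold change, against 53% of all genes tested. Their median was -0.64 (-0.03 over all genes), and 10 were lower at an unadjusted edgeR p under 0.05, against 14.8% of all genes. Their summed level was 474, 413 and 500 FPKM in Prdx1C52S and 1020, 953 and 933 FPKM in WT. Lyz2, lysozyme, had 126, 106 and 124 FPKM in Prdx1C52S and 314, 314 and 277 FPKM in WT (log2 fold change -1.06, edgeR adjusted p = 0.0553). C1qa, a chain of complement C1q, had a log2 fold change of -0.86, Ctss, the lysosomal protease cathepsin S, -0.93 and Cd14, the lipopolysaccharide co-receptor, -1.47. These genes were named for their small p, and the list median was smaller in size. Adgre1, a general macrophage marker, was at -0.41 (edgeR adjusted p = 0.341), and at -0.67 to -0.24 with each library left out. Resident Kupffer cell markers did not follow with all libraries, where 1 of 8 was negative and the median was 0.27. WT 8 decides this: the median was -0.18 without it, and Clec4f stood at 2.56 FPKM in WT 8. The summed level of these markers was 226, 245 and 196 FPKM in Prdx1C52S and 279, 84.8 and 315 FPKM in WT. The part of macrophage number in the members' difference was not tested.

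Taken over the mean log2 FPKM of the macrophage markers, the members part in another way. Fcgr3 remained lower in Prdx1C52S, at -1.19, -1.06 and -1.07, against -0.85, -0.68 and -0.74 in WT (mean log2 difference -0.35, exact permutation p = 0.1, adjusted 0.18 over 9 ratios). Fcgr1, Fcgr4 and Fcer1g differed by 0.01, 0.12 and -0.02, with overlap (exact permutation p = 1, 0.7 and 1). Tyrobp and Syk were higher by 0.18 and 0.22, without overlap (exact permutation p = 0.1 and adjusted 0.18 for each). With the median of the markers in place of the mean, Fcgr1, Fcgr4, Tyrobp and Syk changed sign, to -0.28, -0.16, -0.11 and -0.068, while Fcer1g moved to -0.31 and Fcgr3 to -0.63. The ratios of these members to macrophage markers, other than the direction for Fcgr3, thus depend on how the markers are summarised. Over sinusoidal endothelial markers, Fcgr2b was 0.41, 0.39 and 0.38 in Prdx1C52S and 0.82, 0.77 and 0.93 in WT, a difference of -0.45 (exact permutation p = 0.1, adjusted 0.18) and -0.49 without WT 8. Fcgr2b, which overlapped between genotypes in level, was thus separate when read against 20 endothelial markers of the same library. This p is the smallest that 3 against 3 libraries allow. The markers were uneven in WT 8, where 11 were lowest and 7 highest. The share of all genes that separate over the same marker mean was not computed, and 36.7% of tested genes lay below WT in FPKM alone.

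**Figure D4:**
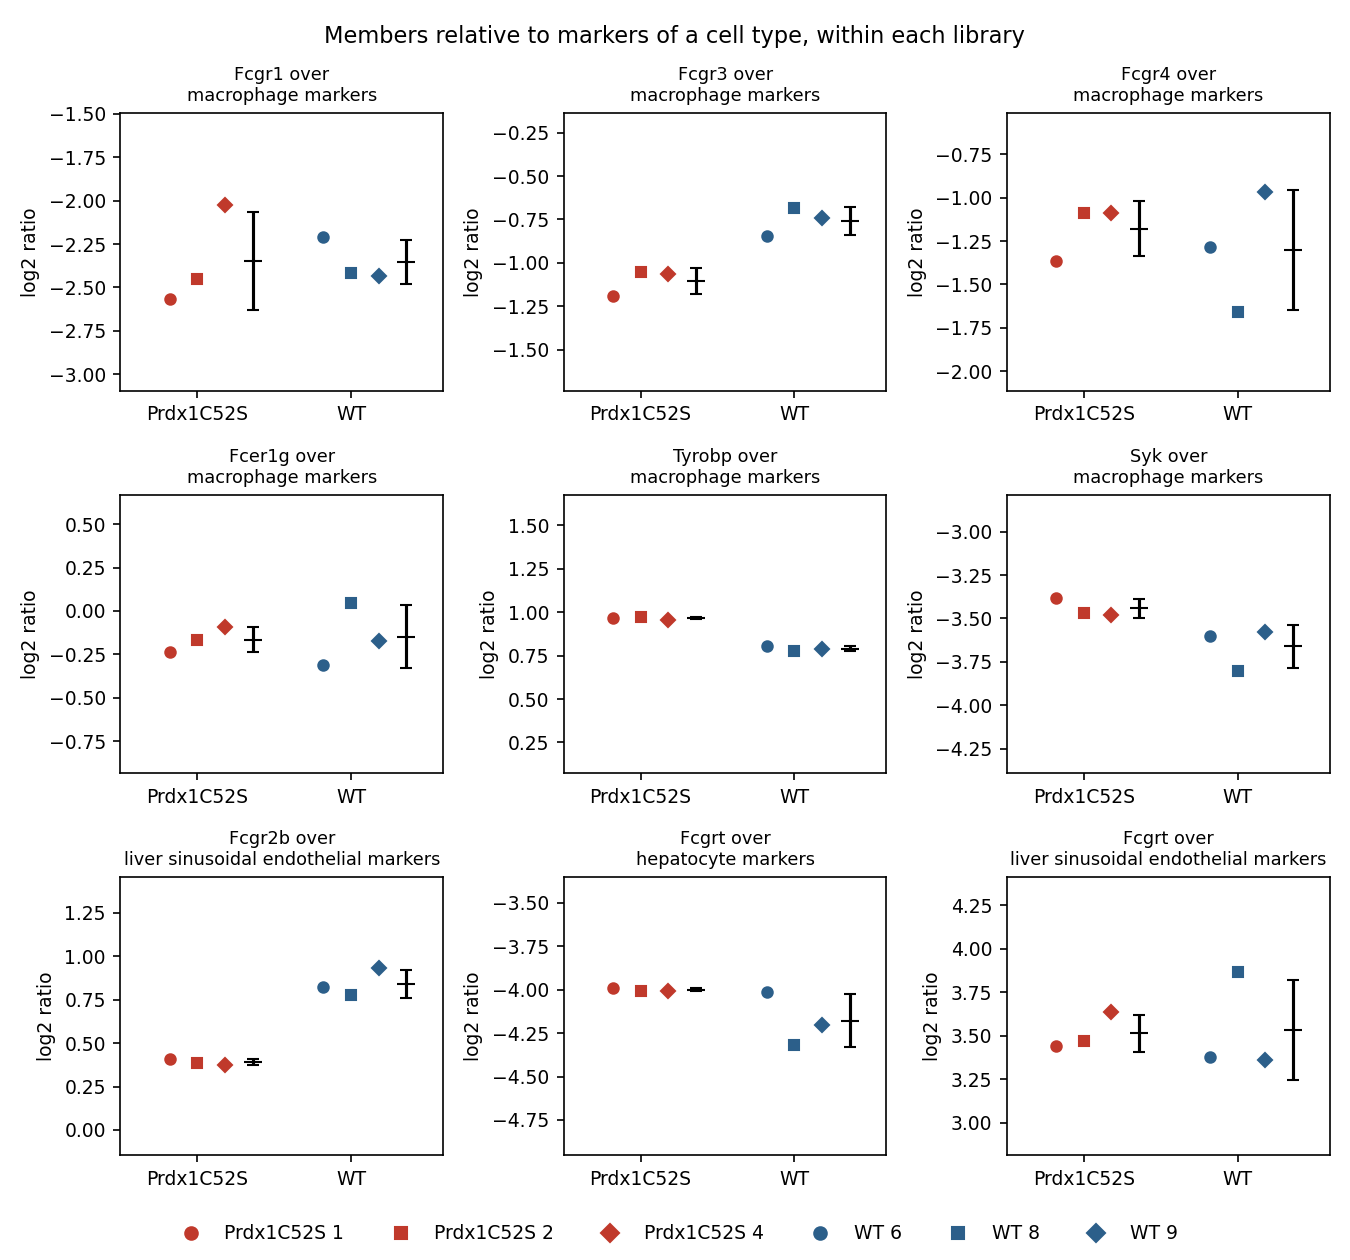
Log2 ratio of each member to the mean log2 FPKM of a cell type's markers in the same library, Prdx1C52S left and WT right, with mean ± SD in black; every panel spans the same range of log2 units. Fcgr3 and Fcgr2b lie below WT in every Prdx1C52S library, and Tyrobp, Syk and Fcgrt over hepatocyte markers lie above WT in every one. Fcer1g, Fcgr1, Fcgr4 and Fcgrt over endothelial markers overlap.

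Endothelial markers themselves had a median log2 fold change of 0.21 with all libraries under edgeR and TMM, where 4 of 20 were negative (53% of all genes tested). The median became -0.05 without WT 8, -0.03 under library totals and -0.0073 with voom. Their summed level was 134, 139 and 124 FPKM in Prdx1C52S and 158, 110 and 149 FPKM in WT. Stab1, a scavenger receptor shared with macrophages, had a log2 fold change of -0.44, and Ehd3, Tie1 and Cdh5 had 0.74 (0.49 without WT 8), -0.33 and -0.21. Stab2, a scavenger receptor of these cells, had 7.28, 8.18 and 6.20 FPKM in Prdx1C52S and 9.50, 3.37 and 8.78 FPKM in WT. Hepatocyte markers had a median of 0.23, or -0.05 under library totals and -0.04 with limma on FPKM. Fcgrt over their mean was higher in Prdx1C52S by 0.18 (exact permutation p = 0.1), but by 0.064 over their median and by 0.11 without WT 8. The hepatocyte markers' own mean log2(FPKM + 0.1) was lower in Prdx1C52S, at 9.96, 10.05 and 10.04, against 10.13, 10.13 and 10.23 in WT. The higher ratio therefore came with a lower marker mean, while Fcgrt was close to equal in FPKM. Fcgrt over endothelial markers differed by -0.02 (exact permutation p = 1). Alb, serum albumin and a defining transcript of liver, stood at 20760 to 22278 FPKM in Prdx1C52S and 18116 to 19647 FPKM in WT. Wholly above WT in FPKM were 2 of 11 hepatocyte markers, Alb included, and 4 were wholly below (6.09% and 36.7% of tested genes).

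Among markers of other cells that hold Fc receptors, monocyte genes summed to 13.4, 9.09 and 13.1 FPKM in Prdx1C52S and 19.9, 29.3 and 19.8 FPKM in WT, with 8 of 9 negative. Of all genes tested, 53% were negative. Neutrophil genes summed to 26.5, 23.5 and 5.66 FPKM in Prdx1C52S and 36.8, 27.8 and 30.0 FPKM in WT, with 10 of 11 negative, and Ly6g stayed at or below 0.0951 FPKM. NK cell genes were negative in 9 of 10, B cell genes in 7 of 8 and dendritic cell genes in 7 of 8. Only 4, 3 and 3 genes of these lists had a mean of at least 0.5 FPKM. Prf1, an NK cell gene, had 0.041 to 0.184 FPKM and Pax5, a B cell gene, 0.058 to 0.104 FPKM. A level of 3 fragments per kb is 0.158 to 0.199 FPKM here, so the direction of such genes rests on few fragments. Mast cell and basophil genes were tested in 2 cases, with Cma1 and Mcpt8 at or below 0.0824 FPKM. Bile duct genes were negative in 6 of 6, with a median of -3.01, or -1.57 without WT 8. Their part in the members' difference was not tested.

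Downstream of the ITAM, the same direction held widely. Of 39 kinases and effectors, 34 were negative, against 53% of all genes tested, and the median was -0.58. At an unadjusted p under 0.05, 29 were lower and 0 higher, where 14.8% of all genes were lower. Without WT 8, 9 were called lower, where 1.94% of all genes were. Cyba, a subunit of the phagocyte NADPH oxidase, had 13.2, 11.8 and 12.8 FPKM in Prdx1C52S and 23.1, 30.5 and 21.8 FPKM in WT (log2 fold change -0.69, edgeR adjusted p = 0.0553). Blnk, a SYK-phosphorylated linker, was at -1.77 (edgeR adjusted p = 0.0553), and Arpc1b and Coro1a, both of the actin machinery of phagocytosis, were at -0.68 and -0.93. Of 16 phosphatases, ubiquitin ligases and adaptors that limit the pathway, 15 were negative (53% of all genes) and 9 were under 0.05 lower (14.8% of all genes), with the adaptors Dok1 at -1.09, Lpxn at -0.79 and Sla at -0.82, and the ubiquitin ligase Cbl at -0.54. Inpp5d, the phosphatase that FCGR2B recruits, was singled out after its values were seen and stood at 1.44, 0.957 and 1.45 FPKM in Prdx1C52S and 2.98, 3.07 and 1.97 FPKM in WT. Most activators and most limiters in the lists thus had lower values in Prdx1C52S.

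Other receptors that couple to FCER1G, TYROBP or SYK were negative in 21 of 25, against 53% of all genes tested, and lower at an unadjusted p under 0.05 in 9, against 14.8%. Itgam, the integrin chain of complement receptor 3, had 0.462, 0.539 and 0.539 FPKM in Prdx1C52S and 2.66, 2.66 and 1.91 FPKM in WT (log2 fold change -1.93, edgeR adjusted p = 0.0553). Itgb2, its partner chain, was at -0.64, Csf1r, the macrophage growth factor receptor, at -0.49 and Trem2, which signals through TYROBP, at -0.99. Of 16 genes listed as inhibitory ITIM receptors, not all of which carry an ITIM, 15 were negative and 11 were under 0.05 lower. The shares of all genes were the same 53% and 14.8%. The collagen receptor Lair1 was at -1.22 (edgeR adjusted p = 0.0553), the lectin Clec4a2 at -1.03 and Sirpa, the CD47 receptor, at -0.67. Ceacam1, also known from hepatocytes and bile canaliculi, ran the other way, with 14.2, 17.4 and 15.6 FPKM in Prdx1C52S and 11.0, 10.1 and 11.6 FPKM in WT (log2 fold change 0.81, edgeR adjusted p = 0.0767).

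**Figure D5:**
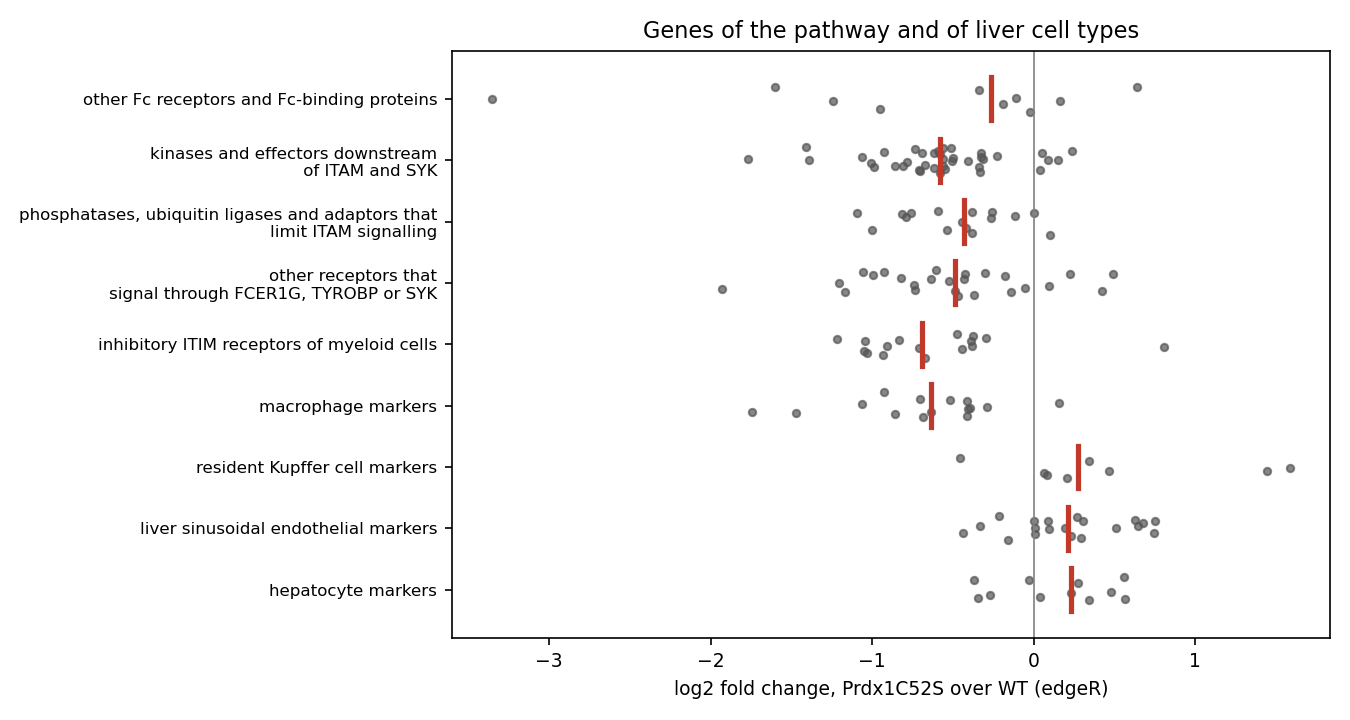
Log2 fold change, Prdx1C52S over WT, of each tested gene in 9 lists (grey points) with the list median in red. The medians run from -0.69 for the list of inhibitory ITIM receptors, not all of which carry an ITIM, to 0.27 for resident Kupffer cell markers. The latter is -0.18 without WT 8.

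Other Fc receptors and Fc-binding proteins numbered 10 tested, with a median of -0.26. Fcrls, a secreted Fc receptor-like protein of macrophages, had 0.120, 0.0357 and 0.0912 FPKM in Prdx1C52S and 0.799, 1.83 and 0.686 FPKM in WT (log2 fold change -3.36, edgeR adjusted p = 0.0601). Its Prdx1C52S values lie under 3 fragments per kb (0.158 to 0.199 FPKM), so the size of this change rests on few fragments. With limma on log2(FPKM + 1) it was -0.92. Pigr, the polymeric immunoglobulin receptor of hepatocytes and ducts, was at 0.64, or 0.41 without WT 8 and 0.37 under library totals. Trim21, the cytosolic antibody receptor, was at -0.19, or -0.50 under library totals. B2m, the light chain of FcRn, was at 0.16, or 0.04 without WT 8 and -0.13 under library totals. B2m stood at 23.5, 22.9 and 26.2 times Fcgrt in Prdx1C52S and 25.8, 29.0 and 26.2 times in WT. Fcrl5, Fcrl6 and Fcrlb were near 0, with highest values of 0.0368, 0.0273 and 0.149 FPKM.

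Promoters of 7 members, 9 in all, were matched in RefSeq (GRCm38.p6). The word GAGGAAGT, a core site of the myeloid factor PU.1, was searched on both strands from 250 bases before to 50 after each start and occurred in 1 of them, Fcgr4, against 3.2% of all 32851 promoters. It is shown here as the only member with a match, on the minus strand, in capitals (chr1:171018676-171018925, plus strand).
Fcgr4 promoter: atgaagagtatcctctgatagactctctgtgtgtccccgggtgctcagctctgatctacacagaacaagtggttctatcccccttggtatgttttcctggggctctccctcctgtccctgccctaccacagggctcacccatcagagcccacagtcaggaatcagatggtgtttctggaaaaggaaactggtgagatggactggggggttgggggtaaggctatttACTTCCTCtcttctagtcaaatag

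Across the 6 libraries, the genes whose log2 CPM most resembled the mean of the macrophage-type members were Atp13a2 (Pearson r 0.991), Cotl1 (0.988), Cd72 (0.988), C1qb (0.986) and Ly9 (0.985). Those most like Fcgr2b were Myo9a (0.991), C4b (0.990), Atp1b3 (0.988), Pde4dip (0.983) and Elmod3 (0.982). Each set holds the 5 highest values among 10666 candidate genes over 6 libraries, so a high r follows in part from the choice. All points share the scaling of their library, so these are descriptions. In FPKM, Fcgr2b was lowest in WT 8 (6.59), whereas the 5 genes most like it were not lowest there. Among the members, Fcgr3 and Fcer1g were closest (r = 0.986), followed by Tyrobp and Syk (0.976). Fcgr2b was at 0.303 with Fcgr3 and 0.769 with Fcgr4, and Fcgrt at -0.464 with Fcgr3.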

How the data were processed

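Liver poly(A) RNA libraries, made with dUTP-marked second strands and molecular identifiers per the labels' protocols, were sequenced as read pairs of 150 nt. The deposited table gives FPKM for each gene and library, per the file headers. It also gives deposited estimated counts, which were rounded before testing. They peak at 4 among low values (6204 values, against 3538 at 3), so they overstate the number of fragments by about 4 times. Tools named in the submitters' processing notes, without a role, are HISAT2 2.0.4, StringTie 1.3.4d, cutadapt 1.9 and UMI-tools, besides edgeR and DESeq2. The notes give mm9 as the build, whereas the coordinates in the table fit GRCm38: of 29734 identifiers, 29642 occur in GENCODE M21 and 25866 have the identical chromosome, start and end there, among them 7 of the 8 members.

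The main test was edgeR 4.0.16 (quasi-likelihood, TMM, filterByExpr, 18931 genes, Benjamini-Hochberg over all of them), and each SE was derived from the log2 fold change and the F statistic. Alternatives used limma 3.58.1, DESeq2 1.42.0 and R 4.3.3, with other scalings, filters, pseudocounts of 1 and 0.1 and each library left out. The models were tested on simulated counts. Ratios of FPKM were compared by exact two-sided permutation tests. The members and gene lists were chosen with earlier results of these data known. Named list genes are the 4 with the smallest unadjusted p among genes with a mean of at least 0.5 FPKM. Outside that rule, Adgre1, Alb, Clec4f, Stab2, Krt19 and Prdx1 were named as anchor genes. Genes near 0 were named from their highest values, and Inpp5d was added after its values were seen. Likeness used genes with a mean of at least 1 FPKM. Lists of monocyte, neutrophil, NK, B, mast, dendritic, hepatocyte and bile duct genes are given by counts. No protein sequence was used here.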

Additional observations from a re-analysis of the deposited data

How the results depend on the processing

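No paired analysis was possible because the genotypes share no replicate number (1, 2 and 4 against 6, 8 and 9). Each member kept the direction of its log2 fold change under all alternatives run, and 25 member values passed the threshold where the value with all libraries under edgeR and TMM did not. The causes were not tested.

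With voom and library weights, Fcgr1 was at -0.85, Fcgr3 at -1.09, Fcgr4 at -0.73, Fcer1g at -0.71, Tyrobp at -0.63 and Syk at -0.62. Fcgr3 and Fcer1g also passed under library totals (-1.31 and -0.98), no filter (-1.03 and -0.69), DESeq2 (-1.01 and -0.67), limma on log2(FPKM + 1) (-1.20 and -0.93) and on log2(FPKM + 0.1) (-1.30 and -0.97). Under these 2 limma fits Tyrobp was at -0.77 and -0.78, and with counts per fragment Fcgr3 was at -1.03.

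Leaving out each library in turn gave Fcgr3 -1.11 to -0.94, Fcgr4 -0.86 to -0.39, Fcer1g -0.78 to -0.58, Tyrobp -0.63 to -0.39, Syk -0.65 to -0.34 and Fcgr2b -0.49 to -0.0064. It gave 0 to 6 members called lower, 0 to 375 genes called lower, 0 to 522 called higher, and 0 to 27 lower and 0 to 1 higher genes of the 5 pathway lists. Every member call of these came without WT 8.

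Genes called higher and lower numbered 35 and 125 under library totals (2 members and 16 pathway genes lower), 105 and 91 with no filter (2 and 8), and 1399 and 1723 with DESeq2 (2 and 44, with 1 pathway gene higher). They numbered 975 and 962 with voom (6 and 44, with 1 higher), 43 and 40 with counts per fragment (1 and 4), 40 and 118 with limma on log2(FPKM + 1) (3 and 14) and 58 and 221 with a pseudocount of 0.1 (3 and 24). With DESeq2 size factors in edgeR, upper quartile factors or limma without a filter, 0 were called, with 4 to 6 members lower at an unadjusted p under 0.05. Over all genes, 2700 of 18931, 2951 of 18931 and 4322 of 29734 were lower at that threshold, in the same order.

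Some values changed sign. B2m was at -0.13 under library totals and -0.12 in the 3 limma fits, Prdx1 at -0.0056 under library totals, Stab2 at -0.0089 under library totals, -0.061 with voom and -0.15 to 0.51 with each library left out, and Clec4f at -0.082 to 0.87 with each library left out. Over the median of the macrophage markers instead of their mean, Fcgr1 was at -0.28, Fcgr4 at -0.16, Tyrobp at -0.11 and Syk at -0.068. With each library left out, the ratios to macrophage markers ran from -0.15 to 0.11 for Fcgr1, -0.054 to 0.29 for Fcgr4 and -0.10 to 0.079 for Fcer1g, and Fcgrt to endothelial markers from -0.11 to 0.15.

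With 3 libraries a group, the spread between libraries limits each call, and estimated counts of about 4 per fragment make the counting error of low-level genes look smaller than it is.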
